A study of Mus musculus with 30 samples.

Results

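Ribosome-associated RNA of D2 medium spiny neurons was compared between Resilient and Control female mice over all expressed genes. The comparison took 10 of the 30 libraries of the study, the 5 labelled D2 Resilient and the 5 labelled D2 Control, and the members were chosen by these labels alone. Both groups carried the A2A-Cre-RT genotype, in which Cre is driven by the gene of the adenosine A2A receptor and switches on RiboTag, an HA-tagged ribosomal protein Rpl22. The D1 Control and D1 Resilient libraries, set beside them below, carried the D1-Cre-RT genotype. Any difference between D2 and D1 libraries is therefore also a difference between mouse lines. Control mice had the treatment Control, and Resilient mice had undergone chronic witness defeat stress (CWDS), the sight of another mouse being defeated, and were classed by their social interaction. Punches of nucleus accumbens were taken 24 h after the social interaction test, polyribosomes were pulled down with an anti-HA antibody, and each library pooled 4 mice with similar social interaction ratios. Replicates were therefore separate pools, and the spread between single mice was not measured. No age of the mice was stated.

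D2 medium spiny neurons are the GABAergic projection neurons of the indirect pathway of the striatum. They carry the dopamine receptor Drd2 and the adenosine receptor Adora2a and release enkephalin, made from Penk, whereas D1 medium spiny neurons carry Drd1 and make dynorphin and substance P from Pdyn and Tac1. In the nucleus accumbens the balance of these classes is known for its part in reward, aversion and the social outcome of stress. RiboTag libraries report the mRNAs bound to tagged ribosomes, together with some RNA of other cells that the pull-down carries along. In such bulk libraries, fewer cells of a type and less RNA per cell cannot be told apart.

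The 10 libraries were deep and similar in size. Counts assigned to genes came to between 52473617 and 65882152 in the D2 Control libraries and between 47207550 and 62997974 in the D2 Resilient libraries, and 19925 to 21664 genes had at least 1 count. Reads that the authors' counting assigned to no gene made up 10.3 to 13.04%. At these depths, 3 counts equalled 0.0455 to 0.0635 CPM, the unit of all levels below, which is a gene's counts scaled to library size (edgeR's TMM method). Rpl22, which bears the tag, was at 67.2 ± 8.16 CPM (SD, n = 5) in Control and 62.4 ± 4.59 CPM in Resilient, with a log2 change of -0.11 (adjusted p 1, edgeR).

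The markers of the labelled class were present in every library, but 1 library of each group stood apart. Drd2 was at 572, 525, 439, 448 and 294 CPM in Control replicates 1 to 5 and at 447, 415, 450, 498 and 205 CPM in Resilient replicates 1 to 5. Drd1 was at 54.7, 68.7, 147, 71.6 and 247 CPM in Control and at 66.9, 56.4, 64.4, 95.2 and 414 CPM in Resilient. Replicate 5 of both groups thus had the lowest Drd2 and the highest Drd1 of its group. Pdyn followed the same order, with 275 CPM in Control replicate 5 and 434 CPM in Resilient replicate 5 against 33.5 to 155 CPM in the other 8 libraries.

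A marker index, the mean log2 CPM of 8 D2 identity genes minus that of 7 D1 identity genes, summed up this check. It was 3.75, 3.56, 2.56, 3.12 and 1.18 in Control and 3.57, 3.75, 3.54, 3.00 and 0.375 in Resilient. All 10 values lay above those of the D1 Control and D1 Resilient libraries, which were between -1.46 and -0.28. The group means, 2.83 ± 1.03 (SD, n = 5) and 2.85 ± 1.41, differed by 0.0146 (exact two-sided permutation p 0.968, where 5 against 5 allows no p under 0.00794). Without both replicates 5 the difference was 0.218 (exact permutation p 0.571, n = 4 and 4, smallest possible 0.0286). Because of the raised D1 markers in both replicates 5, each result below was also computed without this pair of libraries.

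**Figure D1:**
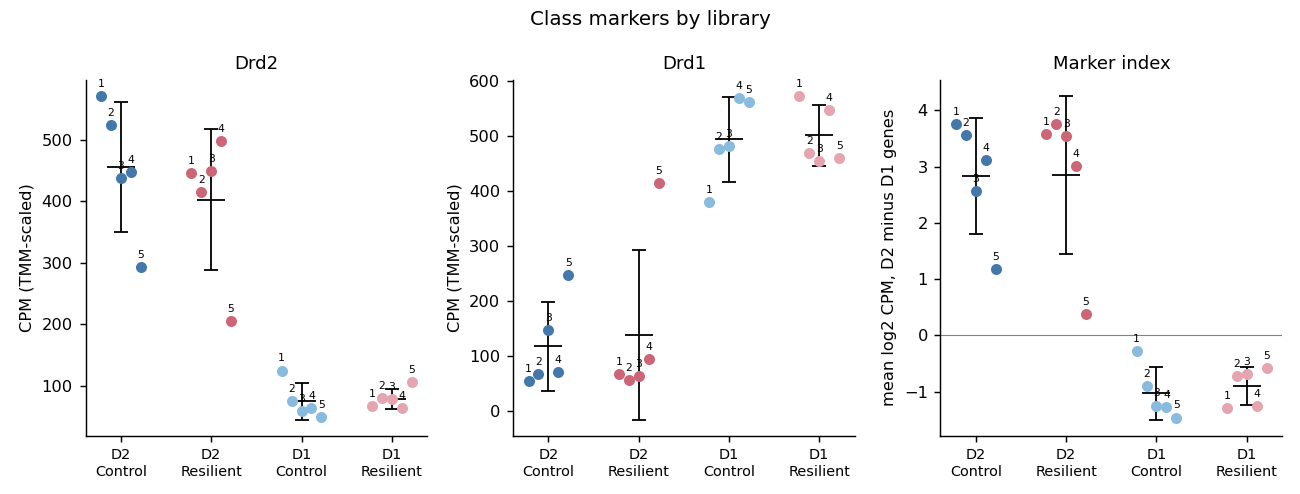
Levels of Drd2 and Drd1 (CPM) and the marker index (mean log2 CPM of D2 minus D1 identity genes) in each library of the D2 and D1 Control and Resilient groups. Points are libraries numbered by replicate, and black marks are the mean and SD of 5; D2 replicates 5 sit nearest to the D1 libraries, at 1.18 and 0.375.

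Over 19368 genes tested, edgeR's quasi-likelihood test on all 30 libraries called 0 genes at a Benjamini-Hochberg adjusted p under 0.05 (0.0%). At an unadjusted p under 0.05 there were 814 genes (4.2%), below the 968 that 5% of the tests would make. Of these, 315 (1.63%) were higher and 499 (2.58%) were lower in Resilient. Without both replicates 5 the test again called 0 genes, and at an unadjusted p under 0.05 284 (1.44%) were higher and 555 (2.81%) were lower. On simulated counts for this comparison, 200 of 19368 genes were changed, all drawn from genes with a mean above 1 CPM. The test recovered 35% of 1.5-fold, 77% of 2-fold and 90% of 4-fold changes, so most 1.5-fold changes were beyond its reach. Changes under 1.5-fold and in lower genes were not simulated. Each gene was drawn independently, without the library-wide differences described below, so recovery in the real libraries could be lower. In 253 genes (1.31%) the 5 Resilient and 5 Control libraries did not overlap, 103 (0.532%) with Resilient above and 150 (0.774%) with Resilient below.

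The gene with the smallest p was Chd9, a chromodomain helicase that remodels chromatin (ENSMUSG00000056608, chromosome 8, 90828352 to 91054516, GRCm38). Its level was 92.2, 66.0, 84.1, 104 and 71.2 CPM in Control replicates 1 to 5 and 49.5, 43.5, 38.3, 39.2 and 34.8 CPM in Resilient replicates 1 to 5. The highest Resilient library lay below the lowest Control library, and Resilient replicate 5 and Control replicate 5 sat with their groups. The means were 83.5 ± 15.5 CPM and 41.1 ± 5.63 CPM (SD, n = 5), a log2 change of -1.02 (SE 0.202). With the spread of all 30 libraries the edgeR adjusted p was 0.399.

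Chd9 passed where the spread was estimated in another way. A fit of the 10 D2 Control and Resilient libraries alone called it as the only gene (edgeR adjusted p 0.00737; 1 gene, 0.00574%). DESeq2 gave an adjusted p of 0.00201 and limma voom with sample quality weights 0.0201. In the model of all groups without 3 Susceptible libraries that stand apart (D1 replicate 1, D2 replicates 1 and 2), the edgeR adjusted p was 0.0679. The biological coefficient of variation was 41.4% over the 30 libraries and 29.6% over the 10. In the fit of 10 libraries the call held without both replicates 5 (log2 change -1.01, edgeR adjusted p 0.0445; 1 gene, 0.00571%). It held when any library but Resilient replicate 3 was left out, where the edgeR adjusted p was 0.0594. Among genes within 500 kb, Rbl2, Aktip, Rpgrip1l, Tox3 and Fto had log2 changes from -0.05 to 0.27 (edgeR unadjusted p 0.210 to 0.690). The gene model Gm45640, which lies inside Chd9 (90876581 to 90878476), was at 11.5 CPM in Control and 7.37 CPM in Resilient (log2 change -0.64, edgeR unadjusted p 0.110), and Gm45428 was at 2.13 and 1.76 CPM (-0.28). The other genes there averaged no more than 1.47 CPM in either group. Reads of Chd9 and Gm45640 could be mixed, because they overlap and no strand setting was stated.

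In the D1 libraries Chd9 was at 85.4 ± 10.6 CPM in Control and 68.9 ± 20.0 CPM in Resilient (SD, n = 5), or -0.31 on the log2 scale (adjusted p 1, edgeR). The lowest D1 Resilient library, at 36.0 CPM, was within the range of the D2 Resilient libraries. The D2 change minus the D1 change was -0.71 (SE 0.283, unadjusted p 0.0173), which did not pass after adjustment (edgeR adjusted p 0.928).

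Xist, the non-coding RNA that coats the inactive X chromosome (ENSMUSG00000086503, chromosome X, 103460366 to 103483254), differed in the opposite direction. It was at 23.1, 21.2, 22.2, 36.9 and 39.3 CPM in Control and at 65.8, 60.5, 51.3, 84.1 and 77.8 CPM in Resilient, with no overlap. The means were 28.5 ± 8.75 and 67.9 ± 13.2 CPM (SD, n = 5), or 1.25 on the log2 scale (SE 0.441; adjusted p 1, edgeR). Voom with quality weights called it (limma adjusted p 0.0241), which with Chd9 made 2 genes (0.0103%), while the fit of 10 libraries did not (edgeR adjusted p 0.309). Without both replicates 5 the log2 change was 1.34 (edgeR unadjusted p 0.0143).

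In the D1 libraries the Xist means ran the other way, with 21.6 ± 19.2 CPM in Control and 15.9 ± 5.59 CPM in Resilient. This order rested on Control replicate 1, at 55.5 CPM, since the other D1 Control libraries averaged less than the D1 Resilient mean. With that library included, the D2 change minus the D1 change was 1.69 (SE 0.622, unadjusted p 0.0117, edgeR adjusted p 0.853). Tsix, the antisense partner that overlaps Xist, averaged 0.271 CPM in Control and 0.111 CPM in Resilient. Among 471 X-linked genes at 1 CPM or more the median log2 change was 0.05, of which 24 higher and 8 lower ones had an unadjusted p under 0.05. Over all chromosomes these were 247 and 409 of 13769 genes at that level with a GC value. No strand setting of the counting was stated, so reads of Xist and Tsix could be mixed.

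DESeq2 called 5 genes in all (0.0258%). Beside Chd9 these were the junction protein gene Pkp1, the growth factor gene Btc, a pseudogene of Rpl17 (Rpl17-ps8) and the gene model Gm48695. Pkp1 and Btc were at 0 to 0.172 CPM in all 10 libraries, Rpl17-ps8 was at 30.6 and 36.8 CPM in Resilient replicates 3 and 5 and at no more than 0.436 CPM elsewhere, and Gm48695 was at 0.164 to 0.732 CPM in Control and 0 to 0.0861 CPM in Resilient. These 4 fall outside the rule for named genes and were listed after their values were seen.

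Of the next genes by p, Snrnp40 passed in the fit of 10 libraries without Resilient replicate 4 (edgeR adjusted p 0.0499) and the others named here passed under none of these methods, but several had groups without overlap. Chd1, another chromodomain helicase of open chromatin, was at 17.9, 15.4, 18.1, 15.5 and 12.96 CPM in Control and at 23.2, 22.04, 21.7, 22.4 and 21.3 CPM in Resilient. Every Resilient library was above every Control library, and the log2 change was 0.47 (SE 0.112, edgeR unadjusted p 0.000215, adjusted p 1). Timm17b, part of the channel that imports proteins into mitochondria, was at 19.9, 17.3, 21.1, 20.98 and 18.4 CPM in Control and at 14.96, 14.7, 15.05, 15.2 and 14.03 CPM in Resilient. Its groups did not overlap either, and the log2 change was -0.40 (SE 0.103, edgeR unadjusted p 0.000463). Both kept their size without the replicates 5, at 0.42 and -0.41, and with an offset for GC content and length described below, at 0.40 and -0.39.

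Other genes higher in value in Resilient had modest log2 changes. They included the ion channel kinase Trpm7 (0.49), the splicing factor Sf3b1 (0.48), the nuclear export receptor Xpo4 (0.51), the polymerase I factor Taf1b (0.40), the polarity scaffold Mpp5 (0.31), the mitochondrial mutase Mut (0.26), and Zfp623 (0.60), Zfp445 (0.20) and Asb11 (0.54). Sf3b1 was at 249, 259, 258, 150 and 263 CPM in Control and at 414, 346, 319, 286 and 273 CPM in Resilient. Its groups did not overlap, although Control replicate 4 was far below the other Control libraries, and without it the log2 change was 0.35.

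A pair of low genes had large but uneven values. Snrnp40, a protein of the U5 spliceosome particle, was at 0.610, 1.01, 0.382, 0.713 and 0.674 CPM in Control and at 12.2, 4.24, 2.33, 0.780 and 4.24 CPM in Resilient (log2 change 2.81, SE 0.813, edgeR unadjusted p 0.0017). Resilient replicate 4 fell inside the Control range. Rnf181, a ubiquitin ligase gene, owed its log2 change of 2.49 to Resilient replicate 3 at 12.8 CPM, since the other 9 libraries were between 0.366 and 0.904 CPM.

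Among genes lower in value in Resilient were the transcription factors Nfic (-0.29), Nr2f6 (-0.44) and Scrt1 (-0.34), the stress kinase Mapkapk2 (-0.52), the autophagy protein Map1lc3a (-0.32), the ribonuclease subunit Rnaseh2a (-0.30), the mitochondrial carrier Slc25a39 (-0.35) and Fam131a (-0.31). Mapkapk2 was at 11.7, 11.04, 10.2, 13.5 and 11.6 CPM in Control and at 6.60, 9.80, 8.87, 8.03 and 7.30 CPM in Resilient. The groups did not overlap, and the edgeR unadjusted p was 0.00123. Nr2f6, an orphan nuclear receptor, was at 26.7 to 31.9 CPM in Control with a median of 31.3 CPM and at 17.6 to 24.4 CPM in Resilient with a median of 22.8 CPM. With the offset for GC content and length its log2 change was -0.21, and that of Map1lc3a was -0.10.

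**Figure D2:**
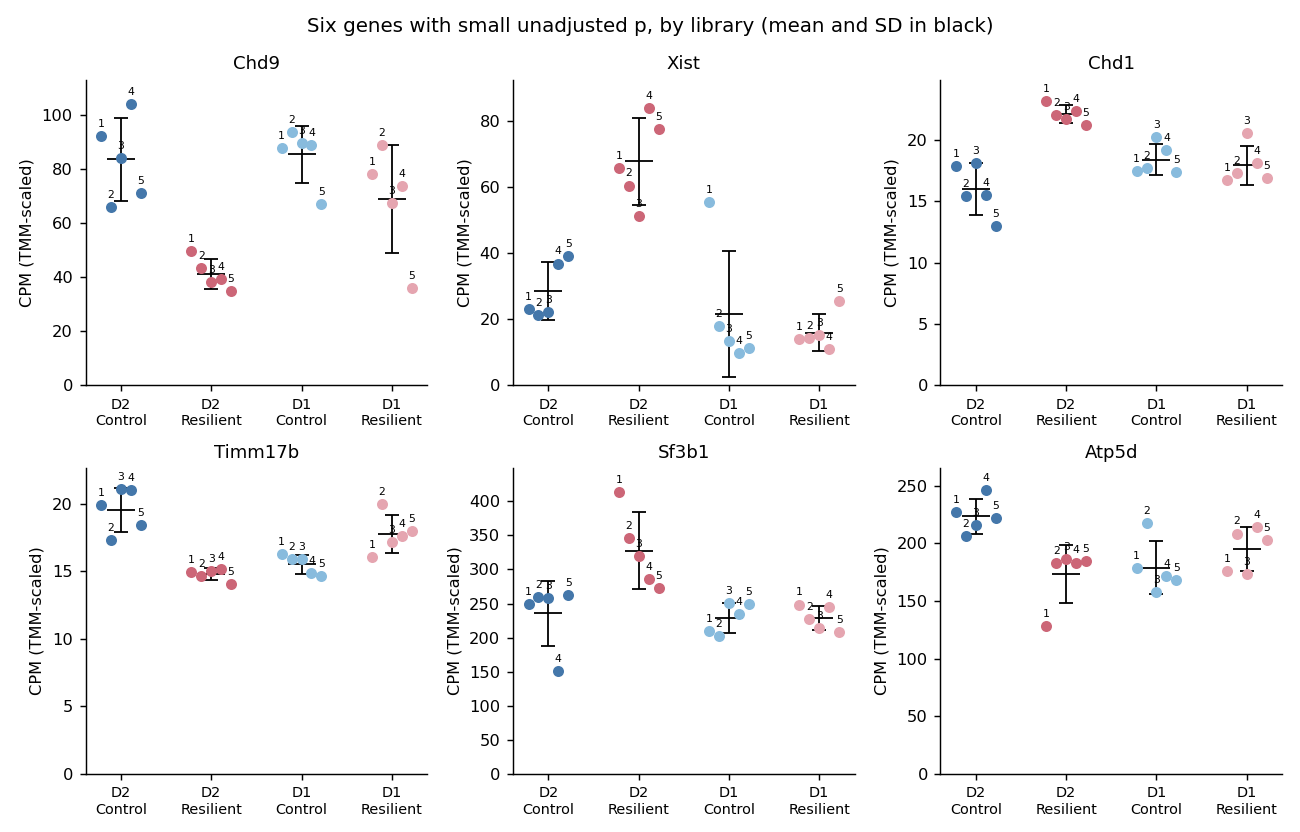
Levels (CPM) of Chd9, Xist, Chd1, Timm17b, Sf3b1 and Atp5d in each library of the D2 and D1 Control and Resilient groups. Points are libraries numbered by replicate, black marks the mean and SD of 5; in D2 the 2 groups do not overlap for any of the 6 genes, and in D1 they do.

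Nuclear genes of oxidative phosphorylation, which encode the respiratory chain and the ATP synthase, formed the list with the most members at a small p, which here and below means an unadjusted p under 0.05. None of 72 tested passed the adjusted test, but 65 had a value below 0. At an unadjusted p under 0.05, 23 (31.9%) were lower and 1 was higher, beside 2.58% and 1.63% of all genes tested. Each later count of small p values in D2 with all libraries and no offset stands beside the same shares. With the GC and length offset described below the shares of all genes were 1.3% lower and 1.34% higher. Fits with libraries left out had other totals, given with them. The median log2 change was -0.18, beside -0.01 over all genes tested. The exception was Ndufa12, a complex I subunit, at 0.38, named after its value was seen. The summed level of the list was 13652 to 14832 CPM in Control and 12329 to 13431 CPM in Resilient, so the sums did not overlap.

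The lower values spread over the complexes. For the ATP synthase, 12 of 14 genes were below 0 and 6 had a small p (median -0.20). Complex I, for which all genes with Nduf names were counted, Ndufa4 included, had 32 of 35 below 0 (median -0.17). Complex III had 8 of 9 (median -0.27), complex IV 10 of 10 (median -0.25) and complex II 3 of 4 (median -0.06). Atp5d, the delta subunit of the ATP synthase, was at 227, 206, 216, 247 and 222 CPM in Control and at 128, 183, 186, 183 and 185 CPM in Resilient. Its groups did not overlap, and Resilient replicate 1 was well below the rest (log2 change -0.37, SE 0.101, edgeR unadjusted p 0.00102). Atp5j2, another subunit of the enzyme, was at 216 to 279 CPM with a median of 225 CPM in Control and at 170 to 216 CPM with a median of 176 CPM in Resilient, with no overlap by a narrow margin (log2 change -0.33, edgeR unadjusted p 0.00441). Cox6b1, a complex IV subunit, was at 224, 233, 245, 295 and 270 CPM in Control and at 188, 205, 231, 222 and 195 CPM in Resilient (log2 change -0.28), with overlap from Resilient replicate 3. Ndufa7 of complex I had a log2 change of -0.28.

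The other mitochondrial lists held no such group of small p values. Of 15 genes encoded in the mitochondrial genome 0 had a small p, and their summed level was 9102 to 18171 CPM in Control and 9844 to 19039 CPM in Resilient. Of 17 genes of mitochondrial dynamics and PGC-1 control 0 had a small p (median -0.01).

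Cytosolic ribosomal protein genes, the protein parts of the ribosome, were lower in value to a like degree. Of 77 tested 69 were below 0, 17 were lower at an unadjusted p under 0.05 and 0 were higher, beside 2.58% and 1.63% of all genes tested, and the median was -0.17. None passed the adjusted test. The large subunit (45 genes, median -0.18) and the small subunit (30 genes, median -0.15) had similar values. Rpl18 was at 124, 123, 120, 165 and 110 CPM in Control and at 92.1, 108, 119, 106 and 105 CPM in Resilient, which gave -0.28 on the log2 scale (SE 0.103, edgeR unadjusted p 0.012). Control replicate 4 stood above the rest, and the ranges overlapped. Rpl10 (-0.22), Rpl23a (-0.20) and Rpl28 (-0.23) were the others with the smallest p. Many of these genes have near-identical pseudogenes, so their counts could be split between copies.

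Both lists rested in part on 2 libraries. Without Control replicate 4 the lower members at a small p numbered 4 of 72 and 4 of 77, with medians of -0.15 and -0.11. Without Resilient replicate 1 they numbered 11 and 7, with medians of -0.16 and -0.18. Leaving out Control replicate 1 gave 27 of the ribosomal protein genes, and leaving out Resilient replicate 2 or 5 gave 11 and 10. Without both replicates 5 they numbered 19 and 10, with medians of -0.18 and -0.17. All genes at a small p in either direction numbered 483 of 19744 without Control replicate 4 and 499 of 19769 without Resilient replicate 1. They numbered 863 without Control replicate 1, 829 without Resilient replicate 2 and 822 without Resilient replicate 5. Without both replicates 5 they numbered 839 of 19722, against 814 of 19368 with all libraries. The lower ones among them were 555 without both replicates 5, 510 without Control replicate 1 and 499 with all libraries.

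The medians of these lists in the D1 libraries had the opposite sign. By complex, the D1 medians were 0.13 for the ATP synthase, 0.12 for complex I, 0.07 for complex II and 0.16 for complex IV. Complex III kept the sign it had in D2, at -0.02. In D1 Resilient against D1 Control, 15 oxidative phosphorylation genes were higher at an unadjusted p under 0.05 and 1 was lower (median 0.12), beside 1.08% higher and 1.51% lower over all genes. Among ribosomal protein genes 17 were higher and 1 lower (median 0.12). The D2 and D1 comparisons share no library, and the difference between the changes was tested gene by gene. It passed for 0 genes by edgeR (0.0%; 967 unadjusted, 4.99%). Of the oxidative phosphorylation genes 36 of 72 had a difference below 0 at an unadjusted p under 0.05 (median -0.34), and of the ribosomal protein genes 31 of 77 (median -0.28), beside 3.15% of all genes. Above 0 there were 1 and 0, beside 1.84%. With the GC and length offset the numbers below 0 were 22 and 15, beside 1.82%. Without Control replicate 4 they were 27 and 24, beside 430 of all 19744 genes. Without both replicates 5 they were 33 and 27, beside 711 of all 19722 genes. Voom with quality weights called the difference for 160 genes (0.826%), of which 16 were oxidative phosphorylation genes and 12 were ribosomal protein genes (limma adjusted p under 0.05).

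Markers of some other cells were lower in the same D1 comparison. At a small p, 8 of 13 oligodendrocyte markers (median log2 change -0.70), 6 of 12 astrocyte (-0.58), 4 of 13 mural (-0.56) and 3 of 11 microglia markers (-0.50) were lower in D1 Resilient and 0 were higher, and no marker tested was at 0 in all 10 D1 Control and Resilient libraries. Endothelial (median -0.32), interneuron (-0.19), excitatory neuron (-0.06) and red blood cell markers (-0.41) had 0 at a small p in D1. Choroid and ependymal markers had 1, which was lower. Summed oligodendrocyte markers were at 547 to 1136 CPM in D1 Control and 415 to 588 CPM in D1 Resilient, astrocyte markers at 493 to 959 and 405 to 499 CPM, mural markers at 20.9 to 39.4 and 15.8 to 18.6 CPM, and microglia markers at 30.4 to 101 and 29.8 to 38.8 CPM. D1 Control replicate 1 was the highest in each of these 4 sums. Without it, in a fit added after the data were seen, 1, 0, 1 and 0 of these markers were lower at a small p. In that fit 18 oxidative phosphorylation and 17 ribosomal protein genes were higher in D1 Resilient, beside 1.22% of all genes. The D2 change minus the D1 change was then below 0 at a small p for 35 and 31 of them, beside 3.37%, and passed for 0 genes after adjustment by edgeR.

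Other parts of protein turnover differed little. Of 34 translation initiation and elongation factors 1 had a small p, Eif3k at 122 ± 11.1 and 105 ± 9.14 CPM (log2 change -0.22). Of 31 proteasome subunits 2 did, the catalytic subunits Psmb5 (-0.31) and Psmb6 (-0.22), with a list median of -0.03. Of 18 heat shock and chaperone genes 0 did.

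**Figure D3:**
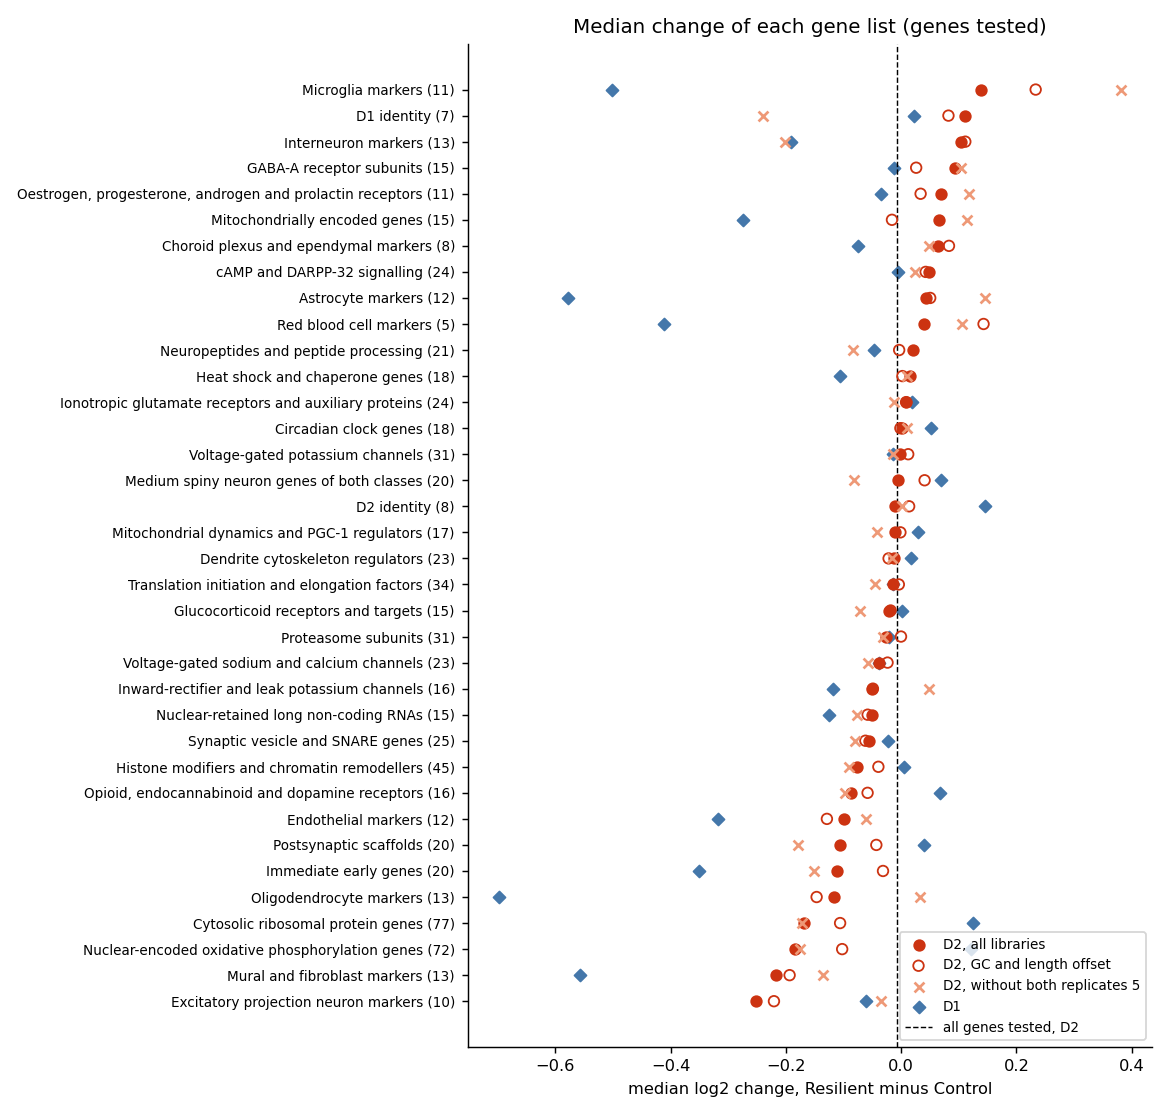
Median log2 change (Resilient minus Control) of each gene list, with the number of genes tested in brackets. Filled red points are D2 with all libraries, open red points D2 with a GC and length offset, crosses D2 without both replicates 5, blue diamonds D1, and the dashed line the D2 median of all genes (-0.01); the oxidative phosphorylation and ribosomal protein lists lie left of it in D2 and right of it in D1.

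The direction of change followed the base composition of the transcripts. Among 13769 genes at 1 CPM or more with a GC value, sorted into 5 bins of equal size by GC content, the median log2 change went down from bin to bin, from 0.08 in the lowest to 0.04, 0.01, -0.04 and -0.11 in the highest. At an unadjusted p under 0.05, 124 genes were higher and 5 lower in the lowest bin, against 3 higher and 232 lower in the highest. The 247 genes higher in Resilient at an unadjusted p under 0.05 had a median GC content of 43.7% and a median transcript length of 3973 bases. The 409 genes lower at that p had 56.2% and 1958 bases, beside 49.6% and 3377 bases over all 13769 genes. The oxidative phosphorylation and ribosomal protein lists had median transcript lengths of 1073 and 1059 bases and median GC contents of 50.2% and 51.1%.

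The trend came from some libraries more than others. The level of the highest minus the lowest GC bin, relative to the mean of the 10 libraries, was 0.20, 0.12, 0.12, 0.15 and -0.11 (log2) in Control and -0.47, -0.05, 0.05, 0.05 and -0.03 in Resilient. Resilient replicate 1 was thus the lowest, and Resilient replicates 2 to 5 lay within the range of the Control libraries. Without Resilient replicate 1 the medians were 0.03 in the lowest and -0.07 in the highest bin, and without both replicates 5 they were 0.11 and -0.15. In D1 the medians ran the other way, from -0.05 to 0.04.

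An offset for GC content and length was fitted per library and added after the data were seen. Fitted to these same counts, and so bound to level the bins, it brought the medians of all 5 to within 0.01 of 0. It called 0 genes with all libraries (0.0%), and 259 genes higher (1.34%) and 252 lower (1.3%) had a small p. In the fit of 10 libraries with this offset Chd9 was again the only gene called (log2 change -1.06, edgeR adjusted p 0.00145; 0.00574%). The oxidative phosphorylation median became -0.10 with 10 lower and 1 higher at a small p, and the ribosomal protein median -0.11 with 5 lower and 0 higher. The medians of both lists were below the 0.00 of all genes under the offset. Whether GC content and length account for the values of these lists was not tested.

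**Figure D4:**
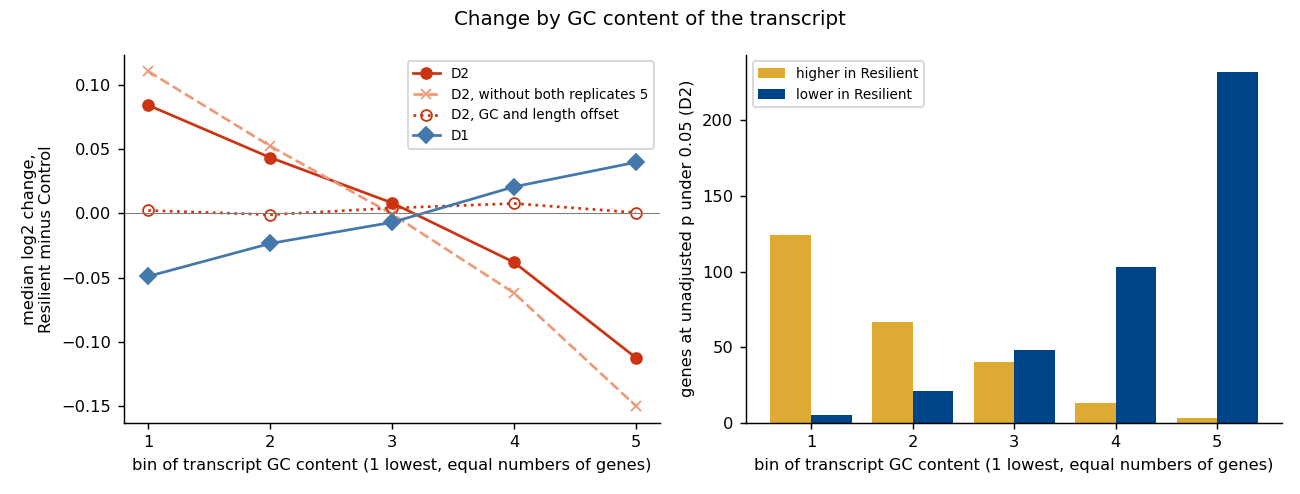
Left, median log2 change (Resilient minus Control) by bin of transcript GC content for D2, D2 without both replicates 5, D2 with the GC and length offset, and D1. Right, the number of D2 genes higher or lower at an unadjusted p under 0.05 in each bin; the D2 medians run from 0.08 to -0.11 and the D1 medians from -0.05 to 0.04.

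Of 25 synaptic vesicle and SNARE genes, which act in the presynaptic terminal, 3 were lower at a small p and 0 higher (median -0.06), beside 2.58% and 1.63% of all genes tested. None passed the adjusted test, and under the offset 1 was lower at a small p. Vamp2, the vesicle SNARE of transmitter release, was at 1189.9 to 1346 CPM with a median of 1239 CPM in Control and at 1079.6 to 1158 CPM with a median of 1107 CPM in Resilient. The groups did not overlap, and the log2 change was -0.17 (SE 0.0598, edgeR unadjusted p 0.00956). Cplx1, a complexin that clamps this machinery, was at 455, 412, 421, 410 and 438 CPM in Control and at 319, 363, 404, 382 and 372 CPM in Resilient, also without overlap (log2 change -0.22). Sv2a, a vesicle glycoprotein, had a log2 change of -0.18. With the GC and length offset the 3 values were -0.12, -0.14 and -0.14.

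Of 20 postsynaptic scaffold genes 3 were lower at a small p and 15 were below 0 (median -0.11). These were Dlgap4 (-0.18), Shank1 (-0.32) and neurogranin, Nrgn (-0.27). Nrgn, which binds calmodulin in spines, was at 1174, 1117, 1005, 1475 and 1171 CPM in Control and at 999, 899, 944, 1186 and 892 CPM in Resilient, with overlap. Under the offset their values were -0.07, -0.18 and -0.12 and none had a small p.

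Receptors for glutamate and GABA had values in both directions. Of 24 glutamate receptor genes 2 were higher and 3 lower at a small p, with a median of 0.01. Gria3, an AMPA receptor subunit, was at 236 to 258 CPM with a median of 247 CPM in Control and 253 to 339 CPM with a median of 273 CPM in Resilient (log2 change 0.21), and under the offset its value was 0.11. Grin2d, an NMDA receptor subunit, was low, at 2.13 ± 0.491 and 1.26 ± 0.425 CPM (log2 change -0.76), and its groups did not overlap. Grik5, a kainate receptor subunit, and Cnih3, an AMPA receptor partner, had log2 changes of -0.31 and -0.32. Of 15 GABA-A receptor subunits 12 were above 0 and 1 had a small p, Gabrg1 (0.36), with a list median of 0.09 that was 0.03 under the offset.

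Dopamine, adenosine and opioid signalling differed little. Of 16 opioid, endocannabinoid and dopamine receptor genes 1 had a small p, the adenosine receptor Adora1, at 287 ± 31.1 and 240 ± 16.7 CPM (log2 change -0.26). Oprk1, the receptor of dynorphin, was at 30.4 ± 3.84 and 36.2 ± 4.55 CPM (log2 change 0.25, edgeR unadjusted p 0.0667). Of 24 genes of cAMP and DARPP-32 signalling and 20 genes shared by both classes of medium spiny neuron 0 had a small p.

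Of 16 inward-rectifier and leak channel genes 1 had a small p in each direction and none passed the adjusted test. These were Kcnj2, which holds these neurons near rest, with a log2 change of 0.21 (edgeR unadjusted p 0.0288), and Kcnk3, with -0.41 (edgeR unadjusted p 0.0201). Under the offset 0 had a small p. Of 23 regulators of the dendritic cytoskeleton 0 had a small p.

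Peptide genes differed in both directions and leaned on single libraries. Of 21 tested 3 were higher and 2 lower at a small p (median 0.02). Scg2, the granin precursor of secretoneurin, was at 770, 834, 932, 691 and 910 CPM in Control and at 1047, 1056, 847, 832 and 1275 CPM in Resilient (log2 change 0.29). Resilient replicate 5 was the highest, and without both replicates 5 the value was 0.23 (edgeR unadjusted p 0.0636). Scg3, a granin-binding protein, had 0.21, and 0.30 without this pair. Pcsk1n, an inhibitor of the convertase Pcsk1, was at 461, 400, 408, 557 and 422 CPM in Control and at 244, 332, 354, 422 and 372 CPM in Resilient (log2 change -0.38), and the value was -0.43 without the replicates 5. Cck, the cholecystokinin precursor, was at 69.2 to 150.3 CPM with a median of 79.3 CPM in Control and 31.5 to 102 CPM with a median of 81.7 CPM in Resilient, so its log2 change of -0.53 was not seen in the medians. Without Resilient replicate 5 the list held 0 higher and 5 lower genes at a small p, where 822 of all genes had one in either direction.

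**Figure D5:**
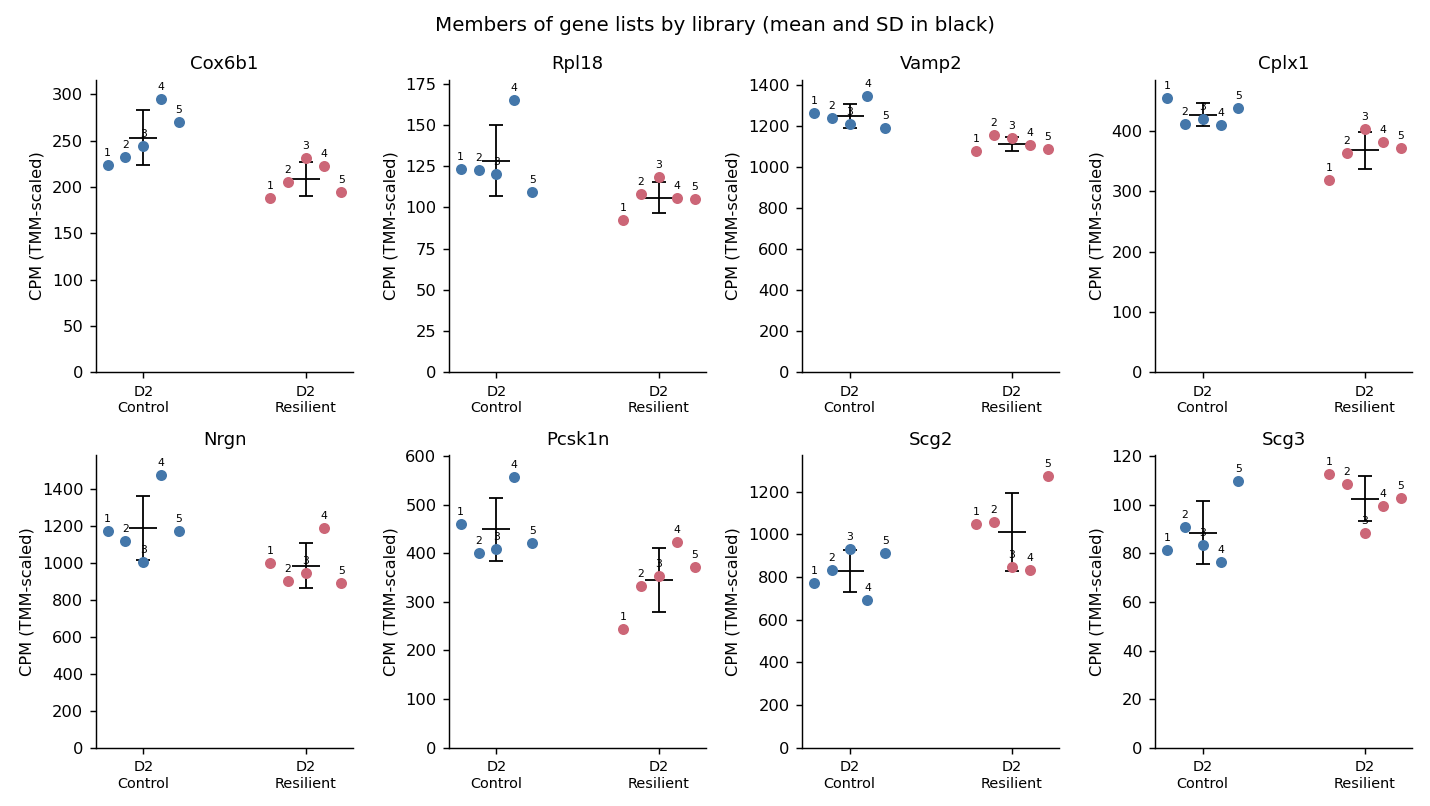
Levels (CPM) of Cox6b1, Rpl18, Vamp2, Cplx1, Nrgn, Pcsk1n, Scg2 and Scg3 in the 5 D2 Control and 5 D2 Resilient libraries. Points are libraries numbered by replicate, black marks the mean and SD; Vamp2 and Cplx1 do not overlap between the groups, and the others do.

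Activity and stress hormone genes gave few small p values. Of 20 immediate early genes 14 were below 0 and 1 had a small p (median -0.11). This was the nuclear receptor Nr4a2, at 12.5, 10.6, 16.7, 13.1 and 36.5 CPM in Control and at 5.49, 16.4, 11.7, 12.4 and 9.57 CPM in Resilient. Its log2 change of -0.69 was -0.25 without Control replicate 5, the highest of the 10 libraries. Fos was at 10.3 ± 1.81 and 12.1 ± 4.99 CPM (log2 change 0.23), Egr1 at 340 ± 42.1 and 314 ± 24.3 CPM (-0.11), and Arc at 45.1 ± 16.8 and 47.4 ± 11.7 CPM. Fosl2, a partner in AP-1, had a log2 change of -0.26 (edgeR unadjusted p 0.0563). In the D1 libraries 8 of these 20 genes were lower and 1 higher at a small p (median -0.35). The D2 and D1 changes of Fos differed by 1.03 (edgeR unadjusted p 0.0101, adjusted p 0.850).

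Of 15 glucocorticoid receptor and target genes 0 had a small p. The chaperone Fkbp5, a target of the glucocorticoid receptor, was at 70.0 ± 6.35 CPM in Control and 68.9 ± 6.52 CPM in Resilient, and the receptor Nr3c1 was at 107 ± 8.00 and 109 ± 13.9 CPM. Of 18 clock genes 1 had a small p, the repressor Cry1, at 40.1 ± 3.50 and 46.8 ± 4.12 CPM (log2 change 0.22). Of 11 receptors for oestrogen, progesterone, androgen and prolactin 1 did, the oestrogen receptor Esr2, which had 4 counts over the 5 Control libraries and 59 over the 5 Resilient libraries. It was at 0 in 2 of the Resilient libraries.

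Other chromatin genes had values in both directions, with Chd1, described above, on the higher side. In a list of 45 histone modifiers and remodellers that does not hold Chd1, 4 were lower and 0 higher at a small p, beside 2.58% and 1.63% of all genes tested, and the median was -0.08. Under the offset 2 were lower and 1 was higher, and without Control replicate 3 or 4 or Resilient replicate 1 2 were lower. In those left-out fits 928, 483 and 499 of all genes had a small p in either direction. With all libraries the lower genes beside Chd9 were the remodellers Chd3 (-0.17) and Chd5 (-0.33) and the histone demethylase Kdm6b (-0.32). Chd3 was at 560 ± 37.4 and 499 ± 45.8 CPM, and without the replicates 5 its log2 change was -0.24 (edgeR unadjusted p 0.00566). Chd5 was lowest in Resilient replicate 1, at 103 CPM, against 138 to 142 CPM in the other 4 Resilient libraries. Under the offset the values of Chd3, Chd5 and Kdm6b were -0.09, -0.24 and -0.18. Of 15 nuclear long non-coding RNAs only Xist had a small p with all libraries. Without Control replicate 4 there were 3, all higher, and the list median went from -0.05 to 0.18. Without Resilient replicate 5 there were also 3, and without Control replicate 5 or Resilient replicate 1 there were 2. Of all genes 822, 933 and 499 had a small p in either direction in these fits.

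No marker of another cell type passed the adjusted test. With all libraries, of 13 oligodendrocyte, 12 astrocyte, 11 microglia, 12 endothelial, 13 mural, 13 interneuron and 10 excitatory neuron markers 0 had a small p. Of 8 choroid and ependymal markers 1 did. That gene, Folr1, was at no more than 0.382 CPM in any library. Summed oligodendrocyte markers were at 711 to 1517 CPM in Control and 476 to 1216 CPM in Resilient, and astrocyte markers at 651 to 944 and 460 to 915 CPM. Resilient replicate 5 was the lowest in both. Summed microglia markers were at 34.5 to 84.3 and 42.8 to 94.4 CPM. At a small p without both replicates 5, 1 microglia and 1 choroid or ependymal marker were higher. There, 1 interneuron and 1 excitatory neuron marker were lower, beside 1.44% higher and 2.81% lower of all genes. The microglia, interneuron and oligodendrocyte medians went from 0.14, 0.10 and -0.12 to 0.38, -0.20 and 0.03. The fit of 10 libraries without this pair had 4 of 12 astrocyte and 4 of 11 microglia markers higher, beside 530 of 17499 genes. Excitatory neuron markers, with a median log2 change of -0.25, were at 376 to 604 CPM in Control and 190 to 535 CPM in Resilient, lowest in Resilient replicate 1, and without both replicates 5 the median was -0.04. Their part in the results above was not tested.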

How the data were processed

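Ribosome-associated RNA was sequenced with the SMART-Seq v4 kit from 10 ng of RNA per library, with RNA integrity numbers above 8, per the labels' protocols. The authors deposited counts of reads per gene, whole numbers that were not normalized, made with HISAT2 and HTSeq on GRCm38 (mm10), per the submitters' processing notes, which name no versions or strand setting. The table held 55335 gene identifiers and matched all 30 single-library files value for value. Symbols, coordinates, GC content and transcript length came from GENCODE M21, and 55154 identifiers matched. HTSeq's summary lines stayed out of library sizes.

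Groups were taken from the labels. The main test was edgeR 4.0.16 (TMM, robust glmQLFit and glmQLFTest, filterByExpr, 6 groups of 5 libraries, contrast D2 Resilient minus D2 Control, Benjamini-Hochberg over 19368 genes, threshold 0.05), tested on simulated data. The filter set 35967 genes aside. CPM values use TMM-scaled library sizes, and a small p in the report means an unadjusted p under 0.05 in this fit. Alternatives were DESeq2 1.42.0, limma 3.58.1 voom with sample quality weights, DESeq2 size factors, no filter, the 10 libraries alone, the marker index as covariate, a replicate block, libraries left out, and, added after the data were seen, a spline offset for GC content and log length. Named genes were, among candidates with a mean of at least 1 CPM and a proper gene name, those called, the 12 with the smallest p in each direction, up to 5 in each direction called by an alternative tool or fit, up to 4 members of each of 36 gene lists with the smallest p, the identity genes, Rpl22, Xist and 5 stress and activity genes; some of these genes are not reported here. The comparison, the lists and this rule were chosen with earlier results of these data known, so no list was tested as a set and none is independent support. Counts of any pair of libraries in a group differed by more than sampling noise.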

Additional observations from a re-analysis of the deposited data

Results flagged for a closer look

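In 198 sets of 5 libraries, 20 held a library whose gap to its nearest neighbour exceeded 0.71 of the whole range, Dixon's 95% critical value for 5. Chance flags about 1 set in 20.

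Resilient replicate 5 was the library with raised D1 markers. Within the Resilient group it had the lowest marker index (0.375), the highest summed D1 identity genes (1858 CPM), and the lowest summed astrocyte markers (460.4 CPM), endothelial markers (123 CPM) and nuclear long non-coding RNAs (960.4 CPM), as well as the lowest Rpl22 (54.5 CPM). Within the Control group, replicate 5 had the lowest summed postsynaptic scaffold genes (8190.5 CPM), the highest summed interneuron markers (324 CPM) and the highest Nr4a2 (36.5 CPM).

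Resilient replicate 1 was the lowest of its group for 5 genes, Atp5d (128 CPM), Fam131a (215 CPM), Eif3k (88.4 CPM), Shank1 (46.7 CPM) and Chd5 (103 CPM). It was also the library with the lowest high-GC against low-GC level, at -0.47 (log2). Control replicate 4 was the highest of its group for Fam131a (399 CPM), Slc25a39 (48.6 CPM), Rpl18 (165 CPM) and the summed histone modifiers and remodellers (5201 CPM) and the lowest for Sf3b1 (150.2 CPM). Resilient replicate 3 was the highest for Rnf181 (12.8 CPM).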

How the results depend on the processing

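The count of 0 called genes was 0 with DESeq2 size factors, without the filter, with the marker index as covariate, with the GC and length offset, without 3 Susceptible libraries that stand apart (D1 replicate 1, D2 replicates 1 and 2), and without any 1 of the 10 libraries or both replicates 5. It was 5 with DESeq2, 2 with voom and 1 with the 10 libraries alone, as it was for those 10 with the offset or without both replicates 5. Leaving out 1 library from the 10 gave 0 to 2, with 0 without Resilient replicate 3, 2 without Control replicate 5 (Chd9 and Xist) and 2 without Resilient replicate 4 (Chd9 and Snrnp40). Same-numbered libraries did not deviate together (r from -0.12 to 0.08), so the numbers were not taken as pairs; with the replicate block the count was 0 (740 unadjusted), and with the block in the 10 libraries 2 (Chd9 and Xist).

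The 814 genes at an unadjusted p under 0.05 became 2569 without the filter, 1890 without the 3 Susceptible libraries, 1554 with voom and 511 with the offset. Leaving out 1 library gave 483 (Control replicate 4) to 959 (Resilient replicate 3), with 499 without Resilient replicate 1, and in the 10 libraries alone up to 1275 without Control replicate 5. The 253 genes without overlap became 927 without both replicates 5 and 379 to 616 without 1 library, where fewer libraries have to be apart. The marker index difference went from -0.40 without Control replicate 5 to 0.63 without Resilient replicate 5, and was also below 0 without Control replicate 3 (-0.05) or Resilient replicates 1 (-0.17), 2 (-0.21), 3 (-0.16) or 4 (-0.02). The difference between D2 and D1 changes was called for 7 genes with DESeq2, 160 with voom and 1 without the 3 Susceptible libraries, and for 0 without D1 Control replicate 1; the cause was not tested. No log2 change of a gene named with one turned its sign under any alternative run. At these depths a level of 3 counts was 0.0455 to 0.0635 CPM before TMM scaling, which limits the lowest genes.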
